A study of Homo sapiens with 8 samples.

Results

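Regions of open chromatin that were called under every treatment, but ranked lower in strength whenever all-trans retinoic acid (ATRA) was given, numbered 3932 of the 66303 regions called in all 4 peak lists, and of 161291 regions in all. They came from ATAC-seq of U-937 cells, a human myeloid cell line that can be driven towards monocyte-like cells. ATAC-seq cuts accessible DNA with a transposase, so a peak marks DNA open to proteins. The 4 groups were DMSO, the vehicle; ATRA at 0.1 µM; Corin at 0.1 µM; and ATRA plus Corin at 0.1 µM each. All cells were collected after 24 h, and each group had 2 samples. Corin is a dual inhibitor that acts on the demethylase LSD1 and the deacetylases of the CoREST corepressor complex. A single list of peaks per group was deposited, made from both samples together, so no value here has a replicate error and no difference was tested. The read depth behind the lists is unknown. All values are from 1 cell line in bulk, in which fewer cells with a region open and less opening per cell cannot be told apart.

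Members were chosen from the measured values. Each region's highest fold over local background in a list was turned into a percentile among the 66303 constitutive regions of that list, from 0 for the weakest to 1 for the strongest. A member had to be lower by at least 0.15 of this scale in ATRA than in DMSO, and lower by at least 0.15 in ATRA plus Corin than in Corin alone. The first condition was met by 11449 regions (17.3%), the second by 7934 (12.0%), and both by the 3932 members (5.93%). The fall itself is therefore the choice and not a result. Sequence, position and neighbouring genes were not used to choose the regions.

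ATRA binds retinoic acid receptors, nuclear receptors that pair with RXR on direct repeats in DNA and recruit coactivators in place of the corepressors NCoR and SMRT. AP-1 is a family of dimers of FOS, JUN and related leucine zipper proteins, which act downstream of growth factor and MAP kinase signals. They bind the nearly palindromic heptamer TGAGTCA, mostly at enhancers. Ligand-bound retinoic acid receptors are known to antagonise AP-1 activity in several cell types. PU.1 is an ETS factor that opens myeloid enhancers and binds sequences built around GAGGAAGT.

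Of the 10 members with the largest mean fall, 7 had an AP-1 heptamer at the summit. The first set shows the 200 bp windows, centred on the summit of the DMSO peak, of 5 of these 7. Their DNA is hg38, plus strand, and capitals mark the AP-1 heptamer, written TGAGTCA or, on the other strand, TGACTCA. The windows are chr1:210446535-210446734 in an intron of HHAT, chrX:38052151-38052350 in an intron of SYTL5, chr10:43782088-43782287 in an intron of LINC00840 with ZNF32 as the nearest coding gene, chr5:35136487-35136686 in PRLR, and chr14:70707392-70707591 near LINC01269 with TTC9 as the nearest coding gene.
HHAT: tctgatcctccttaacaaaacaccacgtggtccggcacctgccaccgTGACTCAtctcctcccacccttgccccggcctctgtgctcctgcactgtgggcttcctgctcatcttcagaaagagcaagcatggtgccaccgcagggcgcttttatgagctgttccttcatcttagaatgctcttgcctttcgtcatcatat
SYTL5: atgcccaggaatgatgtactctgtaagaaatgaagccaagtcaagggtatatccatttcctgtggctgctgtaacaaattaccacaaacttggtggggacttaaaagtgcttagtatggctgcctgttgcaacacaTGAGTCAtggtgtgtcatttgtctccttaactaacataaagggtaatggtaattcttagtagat
ZNF32: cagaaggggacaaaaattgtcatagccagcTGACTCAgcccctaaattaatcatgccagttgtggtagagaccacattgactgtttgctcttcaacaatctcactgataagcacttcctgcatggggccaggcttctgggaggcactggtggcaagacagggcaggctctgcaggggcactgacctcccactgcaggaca
PRLR: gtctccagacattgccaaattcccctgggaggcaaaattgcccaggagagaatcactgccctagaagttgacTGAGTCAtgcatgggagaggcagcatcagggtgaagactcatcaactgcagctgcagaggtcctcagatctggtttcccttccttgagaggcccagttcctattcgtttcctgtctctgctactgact
TTC9: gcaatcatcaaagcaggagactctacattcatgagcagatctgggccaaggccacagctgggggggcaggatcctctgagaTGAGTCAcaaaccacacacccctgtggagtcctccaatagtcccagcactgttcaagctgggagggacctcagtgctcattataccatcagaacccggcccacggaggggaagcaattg

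The other 3 of the 10 had no AP-1 heptamer in the window but a heptamer 1 base away from it, and are shown for that reason. In the windows of SUCLA2 (chr13:47661130-47661329, intergenic) and BTN3A2 (chr6:26351544-26351743, in an intron of a noncoding gene) capitals mark both TGAATCA, which is the substitution G4A counted from the 5′ end of TGAGTCA, and TTAGTCA, which is G2T. In the window near CENPW (chr6:126180659-126180858, in an intron of TRMT11) capitals mark TTAGTCA alone.
SUCLA2: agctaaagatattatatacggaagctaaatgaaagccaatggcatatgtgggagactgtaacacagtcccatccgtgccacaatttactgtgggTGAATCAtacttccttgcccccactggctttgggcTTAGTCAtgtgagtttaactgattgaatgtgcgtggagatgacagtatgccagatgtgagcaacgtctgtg
BTN3A2: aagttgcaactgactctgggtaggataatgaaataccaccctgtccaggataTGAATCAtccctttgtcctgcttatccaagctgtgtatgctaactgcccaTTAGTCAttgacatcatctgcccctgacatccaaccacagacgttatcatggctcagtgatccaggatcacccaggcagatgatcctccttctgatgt
CENPW: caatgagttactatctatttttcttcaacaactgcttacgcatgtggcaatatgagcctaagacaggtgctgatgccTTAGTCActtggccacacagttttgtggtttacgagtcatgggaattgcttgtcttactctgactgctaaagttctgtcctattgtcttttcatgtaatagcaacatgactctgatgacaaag

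Some members near genes with a known role in this system also held the heptamer, while the leading members at IL6, IRF8 and HDAC2 did not. The next windows, all with a heptamer, lie near RARB (chr3:24678494-24678693), which encodes a retinoic acid receptor, in the body of BCL2 (chr18:63161835-63162034), an inhibitor of apoptosis, in the body of ETV4 (chr17:43536274-43536473), an ETS factor downstream of MAP kinase signals, and in the body of BACH1 (chr21:29478054-29478253), a leucine zipper repressor. The AP-1 heptamer is again in capitals.
RARB: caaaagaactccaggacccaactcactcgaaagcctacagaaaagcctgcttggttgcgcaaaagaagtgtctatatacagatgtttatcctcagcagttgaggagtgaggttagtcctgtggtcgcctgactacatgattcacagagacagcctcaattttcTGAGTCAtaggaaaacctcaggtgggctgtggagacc
BCL2: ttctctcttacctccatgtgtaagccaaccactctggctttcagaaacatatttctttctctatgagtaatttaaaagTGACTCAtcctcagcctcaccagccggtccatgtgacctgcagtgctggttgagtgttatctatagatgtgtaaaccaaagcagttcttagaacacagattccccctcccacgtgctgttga
ETV4: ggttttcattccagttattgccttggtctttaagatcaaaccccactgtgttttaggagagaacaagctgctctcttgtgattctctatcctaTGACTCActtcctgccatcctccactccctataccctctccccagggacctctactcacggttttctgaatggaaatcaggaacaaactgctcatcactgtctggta
BACH1: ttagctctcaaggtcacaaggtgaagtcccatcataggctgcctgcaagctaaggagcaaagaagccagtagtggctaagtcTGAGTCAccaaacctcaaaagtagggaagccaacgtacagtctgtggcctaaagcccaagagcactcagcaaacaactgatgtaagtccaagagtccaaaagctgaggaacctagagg

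Of the regions shown first, the HHAT region, at the gene for Hedgehog acyltransferase, had a fold over background of 19.2 in DMSO, 6.92 in ATRA, 18.3 in Corin and 2.14 in the combination. The PRLR region, at the gene for the prolactin receptor, had folds of 21.4, 6.03, 21.6 and 5.22 in the same order. Both were high in both lists without ATRA and low in both lists with it. These regions were picked for the largest mean falls in percentile, which on a scale from 0 to 1 require high starts and low ends. The pattern is thus set by that choice.

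The SYTL5 region had folds of 15.1 in DMSO, 4.84 in ATRA, 19.97 in Corin and 4.02 in the combination. The TTC9 region had 17.8, 5.93, 20.8 and 5.02, and the ZNF32 region had 14.6, 4.05, 14.6 and 2.54. In the SYTL5 and TTC9 regions the highest of the 4 values was that of Corin alone. Among the regions with a variant heptamer, SUCLA2 had folds of 18.0, 4.15, 21.8 and 4.49. BTN3A2, near a butyrophilin gene, had 17.2, 2.57, 21.5 and 5.16, and CENPW had 14.8, 3.52, 17.1 and 3.82. These 3 also had their highest fold in Corin and their lowest in ATRA alone.

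**Figure D1:**
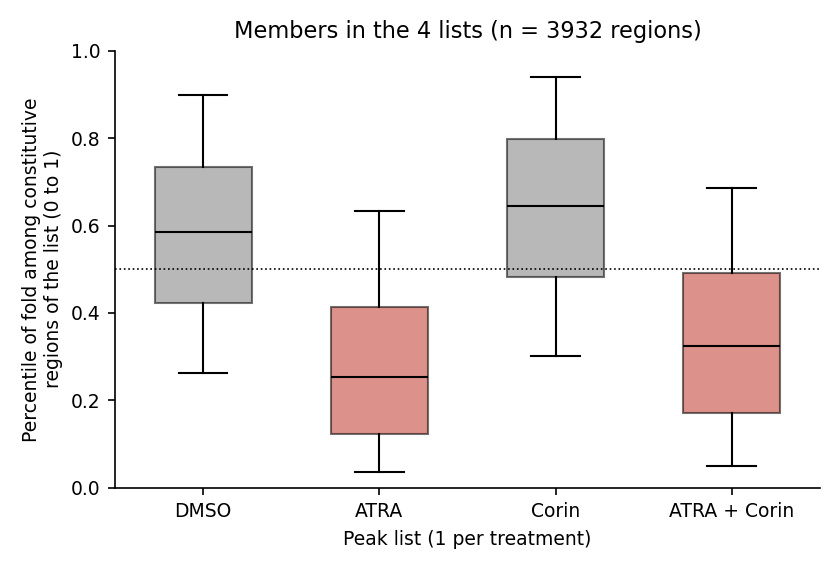
Percentile of fold over background among the 66303 constitutive regions of the list (vertical axis, 0 to 1) in each of the 4 peak lists (horizontal axis) for the 3932 members; boxes span the quartiles with the median as a line, whiskers run from the 5th to the 95th percentile of members, and the dotted line is at 0.5. The medians are 0.585 in DMSO, 0.254 in ATRA, 0.645 in Corin and 0.324 in the combination, a pattern that the choice of members sets.

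Over all members the median percentile was 0.585 in DMSO, 0.254 in ATRA, 0.645 in Corin and 0.324 in the combination, and for constitutive regions it was close to 0.5 in each list. The members started from peaks of moderate strength, since the middle of their distribution in DMSO ran from 0.423 to 0.733. In fold over background their medians were 9.97, 7.49, 10.3 and 6.24, and those of all constitutive regions were 8.74, 11.8, 7.93 and 8.81. The fold scale itself thus differed between the lists, with the highest overall level in ATRA, and percentiles were used for that reason. On the raw fold, 3637 members (92.5%) were lower in ATRA than in DMSO, as were 20.5% of constitutive regions. All 3932 members were lower in the combination than in Corin, as were 34.9% of constitutive regions. The choice of members ranked these same folds, so the shares of members follow largely from it and are a description.

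The falls ranged widely. The median difference in percentile was −0.265 between ATRA and DMSO and −0.255 between the combination and Corin, and the lowest values were −0.910 and −0.969. A fall of at least 0.5 in both comparisons was seen in 129 members. Over all 66303 constitutive regions the 2 differences had a Pearson r of 0.62 and a Spearman rho of 0.57, as a description across regions of the same 4 lists. Opposite movement past the limits was rare, with 95 regions lower in the first comparison and higher in the second, and 313 the other way.

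Corin alone did not lower most members. In 2581 of them (65.6%) the percentile was higher in Corin than in DMSO, and in 2527 (64.3%) it was higher in the combination than in ATRA alone, compared with 51.9% and 55.9% of constitutive regions. These differences share their lists with the choice of members and are given as values only. In the combination the median percentile, 0.324, lay between those of ATRA, 0.254, and of DMSO, 0.585.

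The AP-1 heptamer TGAGTCA, searched on both strands in the 200 bp around the DMSO summit, was present in 1405 of the 3932 members (35.7%, Wilson 95% interval 34.2 to 37.2). It was present in 7106 of the 66303 constitutive regions (10.7%, 10.5 to 11.0), which makes the members' share 3.33 times as high. Intervals cover counting error over regions only. In the 5296 constitutive regions that ATRA strengthened under the mirrored rule (7.99% of constitutive regions), the heptamer was present in 182 (3.44%, 2.98 to 3.96). The interval of the members lay far above both. A high AP-1 share was not particular to members, since the 3324 regions strengthened by Corin, chosen by a similar rule, had 32.5% (30.9 to 34.1). The same letters read backwards, ACTGAGT, which keep the base composition, were in 4.60% of members and 3.06% of constitutive regions. They share TGAGT with the heptamer, so a site such as ACTGAGTCA matches both, and they are not an independent control.

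Heptamers 1 base away from TGAGTCA were mostly more frequent among members too, to different degrees. Of 19 distinct single-base variants, counted in regions without the intact heptamer, TGAATCA (G4A) had the highest ratio, with 9.06% of members and 3.03% of constitutive regions. TTAGTCA (G2T) followed with 7.68% and 2.66%, and TGAGTAA (C6A) with 6.33% and 3.16%. TGTGTCA (A3T) was in 5.78% and 3.84%, and the other ratios were lower. All but TGAGACA (T5A), found in 4.16% of members and 4.29% of constitutive regions, and TGAGTCC (A7C), found in 2.22% and 2.49%, had a higher share among members. The intact heptamer or either of the first 2 variants was present in 1810 members (46.0%) and in 15.7% of constitutive regions. This combined count was added after the data were seen. Its 2 variants had the highest ratios of the 19 in these same members, so it is a description and no further support.

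**Figure D2:**
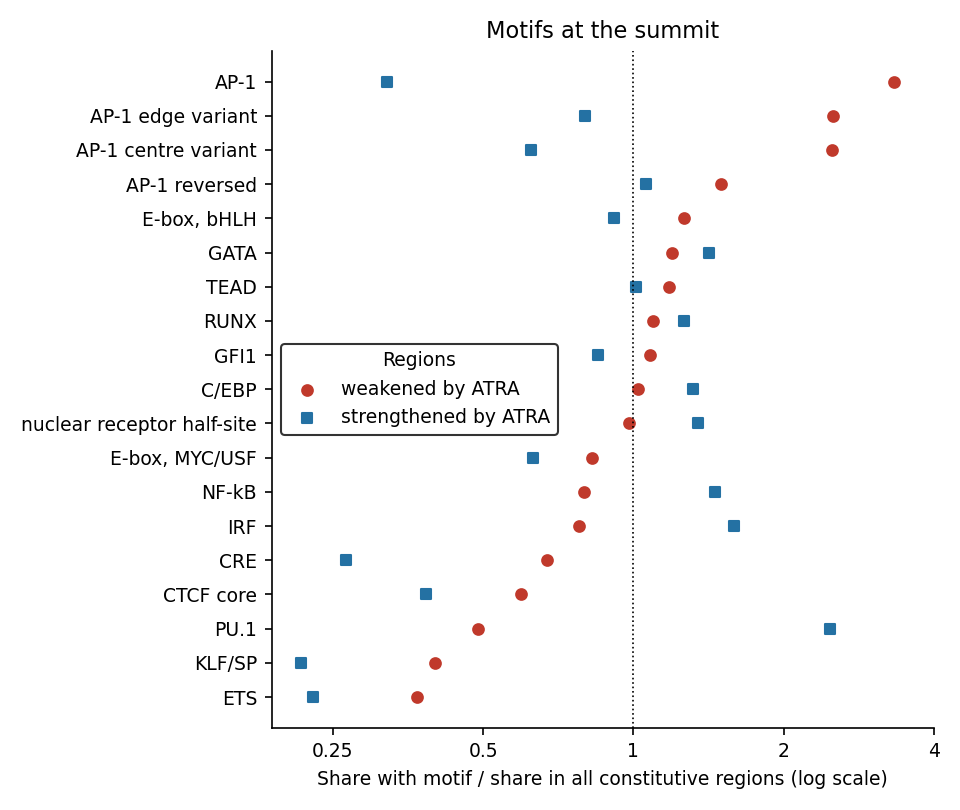
Share of regions with each motif in the 200 bp at the DMSO summit divided by the share in all constitutive regions (horizontal axis, log scale, dotted line at 1), by motif (vertical axis), for members (red circles) and regions strengthened by ATRA (blue squares); direct repeats are not drawn. AP-1 stands at 3.33 in members and 0.321 in strengthened regions, and PU.1 at 0.488 and 2.48. Regions strengthened by Corin are not drawn and stand at 3.03 for AP-1.

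PU.1 letters showed the opposite order. GAGGAAGT was in 140 members (3.56%, 3.03 to 4.19), in 7.30% of constitutive regions and in 18.1% of the regions strengthened by ATRA. Of the 22 motifs searched, 4 were over 1.5 times as frequent in members as in constitutive regions. These were AP-1, the 2 variants with the highest ratios above, and the backward letters, which can overlap the heptamer and had a ratio of 1.502. Another 4 were more frequent in constitutive regions by more than the same factor. Besides PU.1 these were the KLF/SP letters GGGCGG (7.53% and 18.8%), which mark GC-rich promoters, the promoter ETS letters CCGGAAGT (0.610% and 1.65%), and AGGGGGC, part of the motif of the insulator protein CTCF (4.81% and 8.07%). Unlike PU.1, the KLF/SP, ETS and CTCF letters were rarer still in regions strengthened by ATRA (4.06%, 0.378% and 3.10%). Low shares of these letters were thus not particular to members.

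The remaining motifs differed less. The E-box CAGCTG, read by basic helix-loop-helix factors, was in 18.8% of members and 14.9% of constitutive regions, and the IRF letters GAAANNGAA were in 5.39% and 6.94%. TGTGGTT of RUNX factors was in 10.7% and 9.77%, and TTGCNNCAA of C/EBP factors in 2.21% and 2.17%. AGGTCA, the hexamer that nuclear receptors read, was in 10.9% of members and 11.1% of constitutive regions. Direct repeats with a spacer of 1, 2 or 5 bases are the forms that retinoic acid receptors bind. They were searched with a looser hexamer: A or G, then G, then G or T, then TCA. Such repeats occurred in 2, 3 and 3 members (0.0509%, 0.0763% and 0.0763%), and in 40, 47 and 46 constitutive regions (0.0603%, 0.0709% and 0.0694%). With so few matches no difference could be seen. A match is a description of these windows and shows no binding.

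The larger the fall, the more often AP-1 letters were present. Among the 100 members with the lowest mean of the 2 differences, 72 had the heptamer (72%, 62.5 to 79.9). With the 2 variants of highest ratio counted as well, a count added after seeing the data, 86 had a match. With the members ranked by their fall in 4 classes of 983, the share with the intact heptamer was 54.7%, 39.4%, 25.1% and 23.7%. All 4 classes stood above the 10.7% of constitutive regions. When the constitutive regions were instead divided into 20 classes by the mean difference, the AP-1 share went from 39.8% in the class with the largest fall to 4.07% in the class with the largest rise. The PU.1 share went from 3.47% to 20.2% over the same classes.

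**Figure D3:**
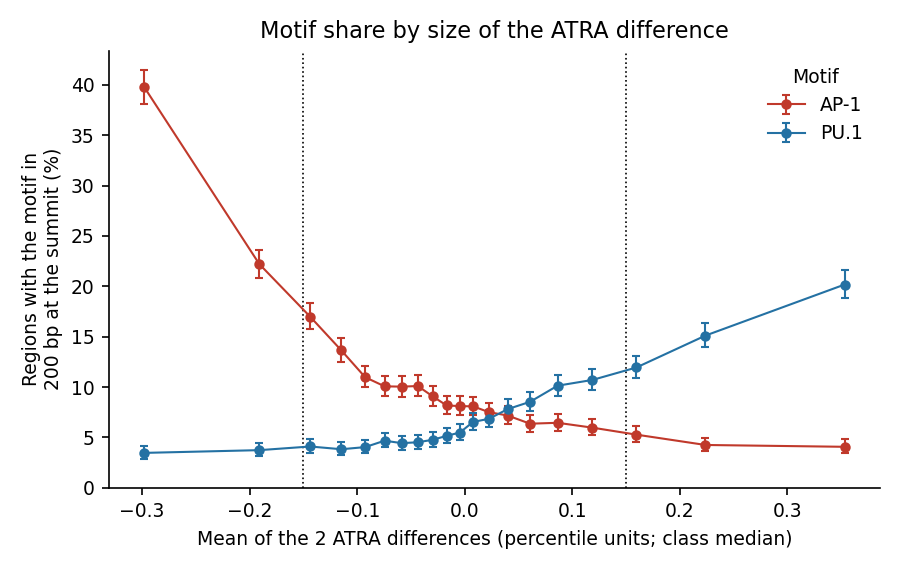
Share of regions with AP-1 or PU.1 letters at the summit (vertical axis, percent, Wilson 95% intervals) in 20 classes of constitutive regions ordered by the mean of the 2 percentile differences (horizontal axis, median of each class); dotted lines mark −0.15 and 0.15. AP-1 goes from 39.8% down to 4.07% and PU.1 from 3.47% up to 20.2%.

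AP-1 matches of the members were concentrated near the DMSO summit, though not all lay there. Within 400 bp of the DMSO summits there were 2095 matches in members, or 533 per 1000 regions, at a median distance of 38 bp, and 58.5% of them lay within 50 bp. In the other constitutive regions there were 199 matches per 1000 regions, at a median of 102 bp, with 34.4% within 50 bp. In the regions strengthened by ATRA, which are also among these others, there were 129 per 1000, at a median of 200.5 bp, with 15.8% within 50 bp. The excess narrowed away from the summit. In the 20 bp bins centred 110 bp before and after it the rates were 9.16 and 5.09 per 1000 in members, and 3.42 and 3.91 in the other constitutive regions.

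**Figure D4:**
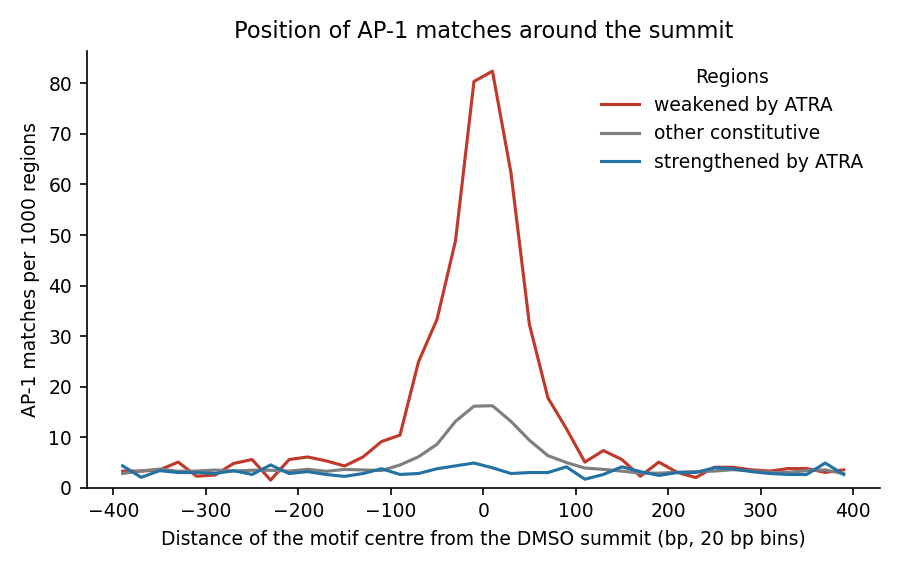
AP-1 heptamers per 1000 regions in 20 bp bins (vertical axis) by distance from the DMSO summit in bp (horizontal axis), for members, other constitutive regions and regions strengthened by ATRA. The members peak at the summit, with 82.4 matches per 1000 regions in the bin centred on 10 bp, compared with 16.2 in other constitutive regions and 3.97 in strengthened ones.

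Regions with more copies of the heptamer were more often members. Of the constitutive regions without a copy in the window, 4.27% were members, compared with 18.8% of those with 1 copy, 31.5% of those with 2 copies (153 of 485) and 36.7% of those with 3 or more (11 of 30, 21.9 to 54.5). The last 2 intervals overlap. PU.1 letters in the same window went with a lower share: 20.5% of regions with AP-1 and without PU.1 were members, compared with 9.13% of those with both (44 of 482, 6.87 to 12.0). Regions with PU.1 and without AP-1 were members in 2.20% (96 of 4360) and had been strengthened by ATRA in 21.4%. The bases beside the heptamer also went with different shares, from 30.1% of regions with A before and C after it to 10.9% of those with C before and A after it.

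**Figure D5:**
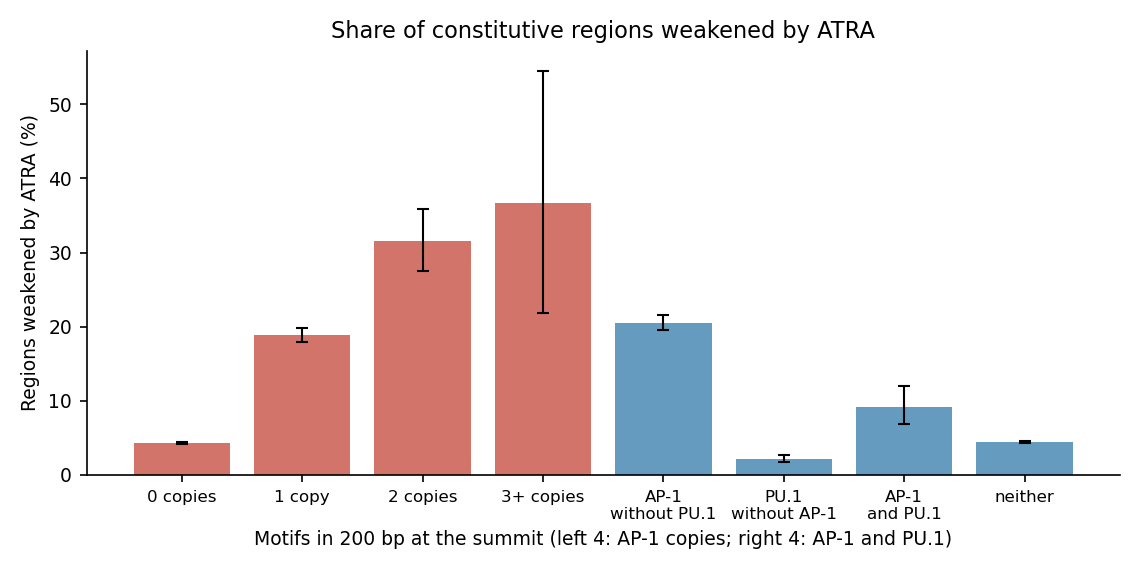
Share of constitutive regions that are members (vertical axis, percent, Wilson 95% intervals) by number of AP-1 heptamers in the window and by the presence of AP-1 and PU.1 letters (horizontal axis). The share is 4.27%, 18.8%, 31.5% and 36.7% for 0, 1, 2 and 3 or more copies, and 9.13% where AP-1 and PU.1 are both present.

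Members with and without AP-1 letters had the same strength in DMSO but not in the other lists. In the 1405 with the heptamer the median percentile was 0.585 in DMSO, 0.209 in ATRA, 0.755 in Corin and 0.371 in the combination. In the 2527 without it the medians were 0.585, 0.275, 0.581 and 0.296. In median fold over background, Corin alone stood at 12.5 in members with the heptamer and at 9.25 in those without it. The higher median in Corin than in DMSO was thus seen in the members with AP-1 letters, while in the others both medians were nearly the same. The median difference between Corin and DMSO was 0.14 in members with the heptamer and 0.01 in those without it. This order was not particular to members. Over all constitutive regions that median was 0.072 with 1 copy of the heptamer, 0.123 with 2 copies and −0.0016 with none. Constitutive regions strengthened by Corin, chosen by the mirrored rule for that compound (3324 regions, 5.01%), had the heptamer in 32.5%, and those weakened by Corin (4628 regions, 6.98%) in 3.72%. These sets use the same 4 lists as the members.

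The 2 comparisons did not carry the AP-1 letters equally. Of the 7517 regions lower in ATRA than in DMSO but not lower in the combination than in Corin, 10.6% had the heptamer, close to all constitutive regions. Of the 4002 regions lower in the combination than in Corin but not in ATRA than in DMSO, 27.0% had it. Base composition moved with the first comparison, since those 7517 regions had a median window GC content of 55%, compared with 46.5% in the 4002 and 48.25% in the members. Across constitutive regions the difference between ATRA and DMSO had a Pearson r of −0.21 with window GC, and the difference between the combination and Corin an r of −0.04. The part of base composition in the choice of members was not tested. Within each of 6 classes of window GC the AP-1 share was 2.75 to 5.28 times as high in members as in constitutive regions, within 4 classes of distance to a transcription start 2.54 to 4.59 times, and within 6 classes of DMSO percentile 2.97 to 3.92 times.

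Members lay away from promoters more often than constitutive regions. Within 1 kb of an annotated start were 626 members (15.9%, 14.8 to 17.1) and 30.2% of constitutive regions. Introns held 49.2% of members and 40.6% of constitutive regions, intergenic DNA 31.6% and 25.6%, and exons 3.23% and 3.57%. The median distance to a start was 9409 bp for members and 4997 bp for constitutive regions, and 10.3% and 5.62% lay more than 50 kb away. Members were also slightly less GC-rich, with a median of 46.0% (45.8 to 46.3) compared with 48.2%, and slightly narrower, with 817 bp compared with 897 bp. A low promoter share was not particular to them, since it was 14.0% among regions strengthened by ATRA and 12.5% among those weakened by Corin.

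AP-1 letters were more frequent in members both at promoters and away from them, while GC content and KLF/SP letters differed mainly at promoters. AP-1 letters were in 30.2% of the 626 promoter members (26.7 to 33.9) and in 6.58% of constitutive promoter regions, and away from promoters in 36.8% and 12.5%. KLF/SP letters were in 22.2% of promoter members and 46.6% of constitutive promoter regions, and median GC was 50.3% and 58.0%. Away from promoters KLF/SP letters were in 4.75% and 6.78%, and median GC was 45.5% and 45.9%. The 5 promoter members with the largest fall, within 1 kb of a coding start, were at PRLR, PHF12, LRBA, BCL2 and HEATR5A, each at an internal start and not at the outermost one.

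At LRBA (chr4:150302500-150302868), whose protein acts in vesicle traffic, the region had 2 AP-1 heptamers and folds of 15.5 in DMSO, 5.04 in ATRA, 17.2 in Corin and 8.84 in the combination. At PHF12 (chr17:28928001-28928508), a subunit of SIN3 corepressor complexes, the folds were 13.0, 4.37, 13.1 and 5.74, with 1 heptamer. At BCL2 they were 11.3, 2.77, 20.6 and 8.56. In all 3 the combination lay above ATRA alone, and at BCL2 Corin alone lay far above DMSO. Of the 12 constitutive regions within 10 kb of BCL2, 1 was a member and 2 were strengthened by ATRA. The HEATR5A region had no heptamer and folds of 15.5, 10.5, 14.6 and 4.22, so that there the combination was the lowest list.

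The members with the strongest evidence in DMSO, by −log10 p, were not the ones with the largest falls. They included a region in an intron of CCND3, the gene of cyclin D3, a region in an intron of HECW2, a region in an intron of TMCC2, and a noncoding promoter with ITGA4 as the nearest coding gene. The CCND3 region (chr6:42028042-42028995) had folds of 15.4 in DMSO, 11.2 in ATRA, 14.9 in Corin and 11.6 in the combination. Of these 4 only the TMCC2 region held an AP-1 heptamer, with folds of 12.9, 11.9, 12.4 and 10.4. The ratio of ATRA to DMSO had a median of 0.780 over all members, and the 4 regions had ratios of DMSO to ATRA between 1.09 and 1.38.

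Members were spread over the genome. By chromosome they made up between 3.20% of constitutive regions, on chromosome 19, and 7.43%, on chromosome 18, apart from chromosome Y with 0 of 2 regions. Another member lay within 50 kb of 27.1% of members, and a member lay within 50 kb of 23.3% of the other constitutive regions. Within 10 kb the shares were 6.08% and 6.50%. The members had 2876 different nearest coding genes, of which 2183 had a single member and 29 had at least 5.

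The genes that were nearest to most members were SNTB1, MTSS1, TCF4 and TENM4. SNTB1, which encodes a syntrophin of the dystrophin complex, had 9 members among its 32 constitutive regions, and MTSS1, a regulator of actin and membrane shape, had 7 of 33. TENM4, a teneurin, had 7 of 41, and 9 of its regions were strengthened by ATRA. SNTB1, MTSS1 and TCF4 had 2, 3 and 2 strengthened regions. TCF4, a basic helix-loop-helix factor that reads E-boxes, had 7 of 19, the highest share of these 4, and none of the 7 held an AP-1 heptamer. The TCF4 region at chr18:55381286-55381877 had folds of 17.5 in DMSO, 14.3 in ATRA, 11.3 in Corin and 6.36 in the combination, so it was lower with Corin too. Then came ASAP1, MREG, TGFBR2, TIAM1 and ZNF281 with 6 members each. Of these ASAP1 had 7 strengthened regions and TGFBR2 had 6, while the other 3 had 1 or 2. At TGFBR2, a receptor of TGF-beta, the members were 6 of 42 regions, and the region at chr3:30548403-30549118 had folds of 12.9, 3.36, 12.3 and 8.70 without an AP-1 heptamer.

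The single largest fall by the mean of both differences lay in an intron of TOX, a chromatin factor of lymphoid cells, with NSMAF as the nearest coding start 182179 bp away (chr8:58842032-58842832). Its fold was 18.4 in DMSO, 4.05 in ATRA, 25.04 in Corin and 4.35 in the combination. Its window held 3 AP-1 heptamers. It went from the percentile 0.942 to 0.0691 under ATRA, and from 0.998 to 0.172 when ATRA was added to Corin.

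Members were counted within 10 kb of the genes of 8 lists, and 45 of the 805 constitutive regions near them were members, compared with 5.93% of all constitutive regions. The median difference between ATRA and DMSO ran from −0.05 to 0.01 over the 8 lists and was −0.01 over all constitutive regions. The monocytic and granulocytic differentiation list had the highest share, with 10 of 93 regions (10.8%, 5.95 to 18.7) at 10 of 23 genes with a region. That rank depended on the distance used: within 50 kb it had 13 of 212 (6.13%), and by nearest coding start 14 of 191 (7.33%), both below the retinoic acid response list, with 7.39% and 10.3%. Its members included regions at CSF1R, CSF3R, CYBB, CEBPE and FCN1. CYBB (chrX:37776298-37777235), the catalytic subunit of the phagocyte NADPH oxidase, had folds of 12.1 in DMSO, 8.86 in ATRA, 11.1 in Corin and 7.97 in the combination. IRF8, a factor of monocyte development, had folds of 12.0, 7.31, 17.0 and 11.0 at chr16:85888479-85889408, which is 9754 bp from its coding start. CEBPE, a factor of granulocyte maturation, had 11.5, 7.97, 12.2 and 8.57. Each was lower in the list with ATRA than in its partner without it, and 2 of the regions strengthened by ATRA lay near the same list.

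The retinoic acid response list had 7 of 93 regions (7.53%, 3.69 to 14.7), among them regions at RARB, DHRS3, ASB2, CD38 and DHRS9. RARB, itself a classical retinoic acid target, had a member with folds of 16.3 in DMSO, 7.92 in ATRA, 16.8 in Corin and 4.98 in the combination. This region lay 8960 bp from the outermost of the 12 coding starts of the gene, and not at the others. This was 1 of 8 constitutive regions near RARB, of which 2 were strengthened by ATRA. DHRS3, an enzyme that lowers retinal, had 15.3, 9.50, 13.8 and 9.49, and DHRS9 had 11.4, 6.07, 14.998 and 10.6, each with 1 AP-1 heptamer. CD38, a surface enzyme induced by retinoids, had 2 members without a heptamer. The one at chr4:15832542-15833360 had folds of 17.1, 13.7, 12.4 and 10.3. Near the same list 6 regions were strengthened by ATRA.

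The stem cell and leukaemia list had 7 of 156 regions (4.49%), and 12 regions near it (7.69%) were strengthened by ATRA. An AP-1 heptamer was in 6 of the 7, compared with 35.7% of all members, a count too small to compare. Of the 7, 4 lay among the 54 regions of RUNX1, a master factor of blood formation, where 6 others were strengthened. The heptamer was in 3 of these 4. The RUNX1 region at chr21:34967423-34968239 had folds of 8.63 in DMSO, 3.29 in ATRA, 12.9 in Corin and 5.70 in the combination. The adhesion and cytoskeleton list had 11 of 169 (6.51%), among them ITGAL, the alpha chain of a leukocyte integrin, with folds of 6.13, 3.46, 9.60 and 4.73. The inflammatory list had 4 of 75 (5.33%), at IL1B, IL6, CCL3 and IRF1, all without a heptamer. IL6, an inflammatory cytokine, had folds of 6.47, 4.67, 6.41 and 4.15 at a region 372 bp from its start. This was 1 of 4 regions near IL6, of which 1 was strengthened by ATRA.

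The list of AP-1 and related leucine zipper factors had 4 of 108 regions (3.70%, 1.45 to 9.14, an interval that holds the 5.93% of all constitutive regions), at FOSL2, BACH1 and BACH2, and none at FOS, JUN or the other listed genes. Near it 5 regions were strengthened by ATRA, and within 50 kb it had 9 members of 206 regions. The BACH1 region shown above had folds of 7.32 in DMSO, 4.11 in ATRA, 8.46 in Corin and 2.97 in the combination. Of 23 constitutive regions near BACH1, 2 were members and 2 were strengthened by ATRA. The other member had no heptamer, and its fold was 12.0 in DMSO and 12.4 in ATRA. The member at FOSL2, a FOS family gene, had 8.18, 7.49, 12.3 and 9.93. It was 1 of 6 regions near that gene, of which 1 was strengthened. The list of MAP kinase feedback genes had 1 of 63 regions (1.59%, 0.281 to 8.46), and 20 of 300 (6.67%) by nearest coding start. The one within 10 kb was at ETV4, with folds of 7.75, 4.84, 16.0 and 9.24. The list of CoREST complex genes had 1 of 48, at HDAC2, a deacetylase of that complex, with folds of 10.4, 9.09, 5.94 and 3.95, where both lists with Corin were lowest.

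The regions nearest to the limit were placed by the smaller of their 2 falls. Just inside lay regions with TGIF1, SEL1L3 and PMAIP1 as the nearest coding genes, and just outside lay regions near KCTD1, GRIK2 and ARL6IP6. The TGIF1 region had folds of 6.29 in DMSO, 5.80 in ATRA, 9.03 in Corin and 6.31 in the combination. The PMAIP1 region had 13.7, 3.95, 4.81 and 3.62, a large fall in ATRA and a small one in the combination. The SEL1L3 region had 5.10, 3.81, 6.92 and 2.96. The GRIK2 region, just outside, had 10.5, 10.6, 11.0 and 9.31, so its fold did not fall under ATRA although its percentile did.

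As a check of the cell type, a region within 1 kb of the start was called for 8 of 10 myeloid marker genes in DMSO, 8 in ATRA, 9 in Corin and 8 in the combination. MPO had no such region in any of the 4 lists, and FCGR1A had one in Corin alone. The myeloid label was thus met for most markers, but openness at a start was not specific, since 5 of 6 lymphoid marker genes had a region in every list, with CD3E the exception. Of 5 erythroid markers 1, 1, 1 and 0 had one, and of 5 epithelial and stromal markers 3, 1, 1 and 2.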

How the data were processed

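U-937 ATAC-seq was deposited as 1 narrowPeak list per group, each from 2 samples. The DMSO list held 222491 peaks, the ATRA list 222110, the Corin list 189896 and the list of both compounds 197548. Per the submitters' processing notes, cutadapt, Bowtie2, SAMtools, Picard and MACS2 were used, with build hg38, and their settings and versions are not given in the sources used here. The deposited fold column is a ratio, the peak's signal over the background around it. The deposited p and q columns are −log10 values, and the summit column is the distance in bp from the peak's start. The lowest −log10 p was 2.79 in DMSO and 2.00 in the other lists. Depth per sample is unknown.

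From these lists, peaks overlapping by at least 1 bp were joined into union regions, and bedtools 2.31.1 gave the same 161291. Values were described without tests, since each group has 1 list. Shares carry Wilson 95% intervals and median GC an exact order-statistic interval, both for counting error only. Places came from GENCODE release 44. A start is any annotated transcription start, a promoter lies within 1 kb of one, and otherwise the place is that of the summit. Windows were 200 bp at the DMSO summit. Named regions were the 10 members with the lowest mean difference, the 5 promoter members with the lowest, the 5 with the highest −log10 p in DMSO, the lowest member of each gene list, the genes nearest to most members, and 3 regions on each side of the limit. Some items this rule selects are not reported here. Other listed genes and the regions given for TCF4, TGFBR2 and RUNX1 were picked after their values were seen. The members and lists were chosen with earlier results of these data known, AP-1 counts among them. The method was tested on simulated data. Python 3.11.15, pandas 2.3.3 and pysam 0.24.0 were used.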

Additional observations from a re-analysis of the deposited data

How the results depend on the processing

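No paired analysis was possible because each group has 1 deposited list, and for the same reason no sample could be left out. With a limit of −0.10 there were 7116 members with an AP-1 share of 28.9%, a promoter share of 20.4% and a median GC of 46.4%. With a limit of −0.20 there were 2271, with 42.2% and 13.7%. Ranking by −log10 p gave an AP-1 share of 37.8% and a GC of 46.5%, with 2660 of the reported members found again (67.7%). The mean of a region's peaks in place of the highest gave 26.5%, a promoter share of 23.5% and a GC of 46.6%, and found 2059 again (52.4%). Centred log2 folds gave a GC of 46.4%, and regions of at most 1500 bp a promoter share of 14.7%. The AP-1 share was 27.8% in windows of 100 bp, 39.4% in windows of 400 bp, 32.7% at the ATRA summit and, as added after seeing the data, 46.0% with the 2 variants counted. The promoter share was 24.4% within 2.5 kb and 6.77% for coding starts only. Members near a gene list numbered 80 of 1550 regions within 50 kb and 96 of 1441 by nearest coding start. Over the 15 alternatives the AP-1 share was 2.47 to 3.94 times that of constitutive regions, and over 12 the promoter share was 0.331 to 0.778 times. Depth is unknown, and the cause of these shifts was not tested.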
